A study of Saccharomyces cerevisiae with 55 samples.

Results

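PHM7, DDR2, SPI1, MSC1, HOR7, YGP1, PBI2, PAI3, XBP1 and GRE3 are general stress genes of the budding yeast Saccharomyces cerevisiae. These 10 genes were chosen by name, as common stress-induced genes, from the 6249 genes or probes of the table. Earlier results of the same arrays had shown large changes of them in KCl or in mutants. Each was read by 1 probe, and 5 of the 10 had a value on every assigned array. Every ratio of KCl over log growth, or of mutant over wild type, is therefore given as a description with no test. Ratios were tested only for hydrogen peroxide in wild type cells and for rapamycin in the double mutant in KCl. A rise in hydrogen peroxide was likely from the choice of common stress-induced genes, so that test gives no independent support.

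Total RNA was measured on 55 two-colour arrays, each comparing a mutant or treated RNA with a reference RNA, and 54 arrays fell into 27 comparisons with 1 to 3 arrays each. All strains were of the W303 background, and log growth means mid-log cells in YEPD, a rich medium with glucose. Stressed cells had received 0.375 M KCl (osmotic stress), 0.4 mM H2O2 (oxidative stress), 42 °C (heat shock) or 200 nM rapamycin for 20 min. Wild type cells in KCl (3 arrays), H2O2 (2 arrays), heat (1 array) or rapamycin (1 array) were compared with wild type cells in log growth. The strains labelled kcs1, vip1, kcs1/vip1, arg82, ipk1, snt1 and rpd3 carried null mutations of the named genes, and Vip1D487A and Rpd3ibs were altered forms of VIP1 and RPD3. Each of these 9 strains was compared with wild type cells with both in log growth and with both in KCl. The kcs1/vip1 strain was also compared with wild type cells with both in H2O2 (2 arrays) and with both in heat (1 array). It was compared with its own log growth in KCl (1 array) and in H2O2 (1 array), and in KCl with rapamycin against KCl alone (3 arrays). Nothing in the labels says that the arrays of a comparison came from separate cultures or from more than 1 isolate of a strain, so SDs and p-values describe the spread between arrays only. With so few arrays a comparison, that number sets the precision.

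Yeast cells answer many different stresses with a shared transcriptional programme, the environmental stress response. Its induced genes are switched on largely by the related activators Msn2 and Msn4, which bind the stress response element AGGGG, and in osmotic stress the MAP kinase Hog1 also drives transcription. Protein kinase A and the rapamycin-sensitive kinase complex TORC1, both active in growing cells, hold these genes low. Kcs1 and Vip1 are the kinases that make inositol pyrophosphates, Arg82 and Ipk1 make their precursors, Rpd3 is the histone deacetylase of the Rpd3L and Rpd3S complexes, and Snt1 belongs to the Set3 deacetylase complex. The study placed the inositol pyrophosphate pathway and Rpd3L beside this response in its design.

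All values below are log2 ratios, so that a value of 1 is a 2-fold difference. They are changes and not levels of RNA. Single-colour intensities were not analysed here, so whether a gene was above background in the reference RNA is not known, and the largest ratios depend on how a low reference signal was handled. A mutant was said to be higher or lower by at least 1 where the mean passed 1 and all its arrays lay on that side of 0, with at least 2 values where the comparison had more than 1 array.

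The deleted genes served as a check of the strain labels. Of 43 values that the arrays could have given for them, 30 were missing, 11 lay below -4 and 2 lay above -1. KCS1 was -0.30 on the array numbered 2 of kcs1 in log growth, and VIP1 was -0.01 on the array labelled kcs1/vip1 in heat. That heat array correlated with the array of wild type heat over log growth (Pearson r = 0.77 across 5202 genes, which are not independent). The ipk1 arrays numbered 2, which shared a slide, differed from the other ipk1 arrays. KCS1 had no value on these 2 arrays, and was at -0.15 in log growth and at -0.06 and -0.30 in KCl on the others. Whether they also lacked KCS1 was not tested. The pairs of Vip1D487A arrays barely correlated (r = 0.02 in log growth and 0.15 in KCl). Results that rest on these arrays are given with that doubt.

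In wild type cells in KCl all 10 genes were higher on every array, by means from 1.77 to 10.88, with a median of 5.51. The first of the 3 arrays was a dye swap, used with the sign as deposited. By the rule above, 10 of 10 genes were higher by at least 1, against 17.8% of the 5863 genes counted. The 3 genes of the cell surface and membranes rose on every array, to different degrees. PHM7, a membrane protein of the family of osmosensitive calcium-permeable channels, stood at 10.63, 11.31 and 10.71 (10.88 ± 0.37, SD, n = 3). SPI1, a GPI-anchored cell wall protein that accumulates in stationary phase, gave 9.25, 10.10 and 8.99. YGP1, a secreted glycoprotein made when nutrients run short, gave 6.11, 4.95 and 4.77. The YGP1 arrays did not reach those of SPI1, and the SPI1 arrays stayed below those of PHM7.

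The small multistress genes DDR2 and HOR7 are paralogs, first described as responsive to DNA damage and to high osmolarity. DDR2 was at 9.50, 11.56 and 10.83 in KCl (10.63 ± 1.04), and its arrays overlapped those of PHM7. HOR7 was at 3.79, 5.27 and 5.87 (4.98 ± 1.07), so the ratios of the paralogs did not overlap. MSC1, a gene of poorly known function named for a phenotype in meiotic recombination, gave 8.22, 9.68 and 8.85. GRE3, an aldose reductase that reduces sugars and methylglyoxal, gave 5.43, 5.93 and 5.89, the least spread of the 10 genes (SD 0.28).

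The proteinase inhibitors lay lower. PAI3, the inhibitor of the vacuolar proteinase A, gave 4.56, 3.25 and 5.05. PBI2, the inhibitor of the vacuolar proteinase B, gave 1.66, 1.12 and 2.53 (1.77 ± 0.71), all under every value of the other 9 genes. The label of strong induction thus held least for PBI2. XBP1, a repressor of transcription that is itself induced by stress, gave 4.11, 2.85 and 3.81. The 4 genes PHM7, DDR2, SPI1 and MSC1 lay apart from the other 6, since the lowest MSC1 array (8.22) was above the highest value of YGP1 (6.11). Within each of these blocks neighbours in the order overlapped, except that PBI2 lay below XBP1 on every array.

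The listed other stress-induced genes, chosen from textbook knowledge with results of these data known, moved the same way. Of 37 measured, 37 were higher by at least 1, with a median of 4.28. The catalase CTT1 (11.36 ± 0.72) and the membrane-protecting HSP12 (10.08 ± 0.78) were of the size of PHM7 and DDR2. SOL4, a homolog of 6-phosphogluconolactonase (7.81 ± 0.47), and the trehalose phosphatase TPS2 (7.44 ± 0.66) followed.

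**Figure D1:**
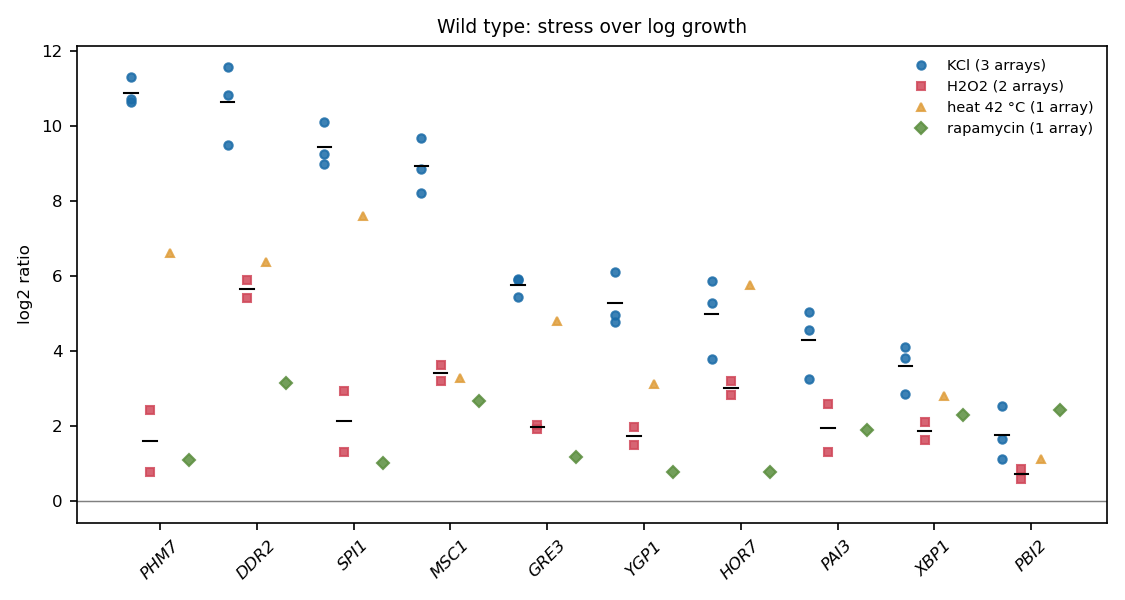
Log2 ratio of stressed over log-growth wild type RNA (vertical axis) for the 10 genes (horizontal axis); each point is 1 array and black bars are means of 2 or 3 arrays. PHM7 lies at 10.63 to 11.31 in KCl and at 0.79 to 2.44 in H2O2, whereas DDR2 is the highest of the 10 in H2O2 and PBI2 the lowest there.

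H2O2 in wild type cells raised 9 of the 10 genes (limma with Benjamini-Hochberg adjustment over 5735 genes, adjusted p below 0.05), against 22.0% of all genes tested that rose and 21.4% that fell. The members' median was 1.96. Because common stress-induced genes were chosen, this count is no independent sign of a general response. The changes were smaller than in KCl and followed another order, with DDR2, MSC1 and HOR7 first. DDR2 was at 5.90 and 5.42 on the 2 arrays (log2 5.66, SE 0.96, adjusted p = 3.1e-05 in limma). MSC1 was at 3.63 and 3.21 (log2 3.42, SE 0.39, limma adjusted p = 3.06e-08), with close agreement of the arrays.

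HOR7 was at 3.21 and 2.84 (log2 3.02, SE 0.96, limma adjusted p = 0.0126). Its SE came from 1 estimate per gene of the spread between arrays within the comparisons, shared by all 27. The doubted ipk1 arrays enter that estimate, with HOR7 SDs of 4.01 in log growth and 4.00 in KCl. DDR2 had the same SE, and ipk1 SDs of 3.59 and 3.95. Without the 8 doubted arrays, a choice made after seeing the data, the limma adjusted p was 5.23e-05 for HOR7 and 1.07e-11 for DDR2. GRE3 was at 2.02 and 1.93 and XBP1 at 1.64 and 2.12, and both rose, with limma adjusted p of 1.66e-06 and 0.000635. The cell surface genes rose less evenly. SPI1 gave 2.94 and 1.31 (limma adjusted p = 6.2e-05), PHM7 gave 2.44 and 0.79 (limma adjusted p = 0.000556) and YGP1 gave 1.97 and 1.50 (limma adjusted p = 0.00647). For SPI1 and PHM7 the first array was more than 1 above the second.

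Of the inhibitors, PAI3 gave 2.58 and 1.30 and rose (limma adjusted p = 0.00144). PBI2 gave 0.86 and 0.60 and did not pass (limma adjusted p = 0.208). Of the proteinases they inhibit, PRB1, proteinase B, rose by 1.36 (SE 0.26, limma adjusted p = 8.57e-05). PEP4, proteinase A, was at 0.87 (SE 0.46) and did not pass (limma adjusted p = 0.123). The difference between the proteinases was not tested. SPS100, the paralog of YGP1, was at 1.31 with a limma adjusted p of 0.13.

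Among the other stress-induced genes 35 of 37 rose in H2O2, with a median of 2.38. Of 11 regulators measured, 4 rose and 1 fell, with YAK1 in both of these lists. Over all genes tested 22.0% rose and 21.4% fell, so the number of regulators that passed was near the share of all genes. The protein kinase A subunits BCY1 (regulatory, 0.98) and TPK2 (catalytic, 1.64), and the kinases YAK1 (0.92) and RIM15 (0.56), rose, and the catalytic subunit TPK3 fell by 0.78. MSN2 (0.46) and MSN4 (-0.09), which encode the activators of the stress response element, did not pass. Without the first H2O2 array the calls of PHM7, SPI1, HOR7, YGP1 and PAI3 were lost (limma adjusted p = 0.264, 0.0841, 0.161, 0.157 and 0.182), and 4 of the 10 genes passed. Without the second only HOR7 was lost among the 9 (limma adjusted p = 0.0804). The 2 arrays were on different slides, and a slide term as a random block left 9 of 10 called.

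Heat and rapamycin were each measured on 1 wild type array, with no replicate check and no test. In heat SPI1 was first at 7.59, then PHM7 at 6.62, DDR2 at 6.38, HOR7 at 5.75 and GRE3 at 4.80. MSC1 (3.29), YGP1 (3.13), XBP1 (2.81) and PBI2 (1.13) were lower and PAI3 had no value. All 9 genes with a value were at least 1 higher, against 15.9% of all genes on that array. HOR7 and PBI2 in heat were within the range of their 3 KCl arrays, whereas PHM7, DDR2, SPI1, MSC1, GRE3, YGP1 and XBP1 in heat were below all of theirs.

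On the rapamycin array DDR2 was first at 3.14, followed by MSC1 at 2.68, PBI2 at 2.43, XBP1 at 2.30 and PAI3 at 1.89. GRE3 (1.17), PHM7 (1.10), SPI1 (1.03), HOR7 (0.78) and YGP1 (0.77) were lower. In all, 8 of 10 were at least 1 higher, against 28.2% of all genes, on an array whose own median was 0.38. PBI2, the lowest of the genes with a value in the other stresses, followed DDR2 and MSC1 here. Its value lay within the range of its KCl arrays, while those of PHM7, SPI1 and YGP1 were far below theirs.

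In the kcs1/vip1 strain in log growth, without stress, 8 of the 10 genes were higher than in wild type by at least 1, against 8.8% of all genes. The median of the 10 was 2.41. DDR2 was at 4.91, 4.56 and 4.21 (4.56 ± 0.35, n = 3), higher than in wild type on all 3 arrays. XBP1 had 2 values, 3.72 and 4.03. SPI1 was at 3.45, 3.21 and 3.66 (3.44 ± 0.23), and PHM7 at 2.16, 2.66 and 2.86 (2.56 ± 0.36).

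HOR7 (3.58, 2.29 and 2.01), YGP1 (1.20, 3.42 and 2.13) and MSC1 (1.45, 1.58 and 2.93) were higher on each array with more spread. PAI3 stood at 1.03, 1.33 and 1.37. GRE3, at 0.86, 0.85 and 1.28, had a mean just short of 1 before rounding. PBI2 had arrays on both sides of 0, at 1.62, -0.74 and 0.46. Of the other stress-induced genes 23 of 37 were higher by at least 1, with a median of 1.16.

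With both strains in KCl, 1 of the 10 genes was higher and 3 were lower by at least 1, against 13.3% and 10.0% of all genes. The median of the 10 was -0.30. GRE3 was at -2.68, -2.23 and -2.46 (-2.46 ± 0.23, n = 3), MSC1 at -2.10, -1.73 and -1.85 (-1.89 ± 0.19) and YGP1 at -1.60, -0.57 and -1.38 (-1.18 ± 0.54). SPI1, at -1.10, -0.92 and -0.88, was below wild type on each array with a mean of -0.97. XBP1 alone was higher by that rule, at 1.04, 0.91 and 1.78.

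PHM7 (-1.27, -0.25 and 0.47), DDR2 (-0.23, 0.81 and -0.14), PAI3 (0.54, -0.09 and -1.11) and PBI2 (1.00, -0.79 and -0.95) straddled 0. HOR7 was at 1.95, 2.05 and -0.28, so its mean of 1.24 rested on the first 2 arrays. For SPI1, MSC1, YGP1 and GRE3 all 3 log-growth arrays were above 0 and all 3 KCl arrays below it. The listed stress-induced genes had 0 of 37 higher and 14 lower in KCl, with a median of -0.65.

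**Figure D2:**
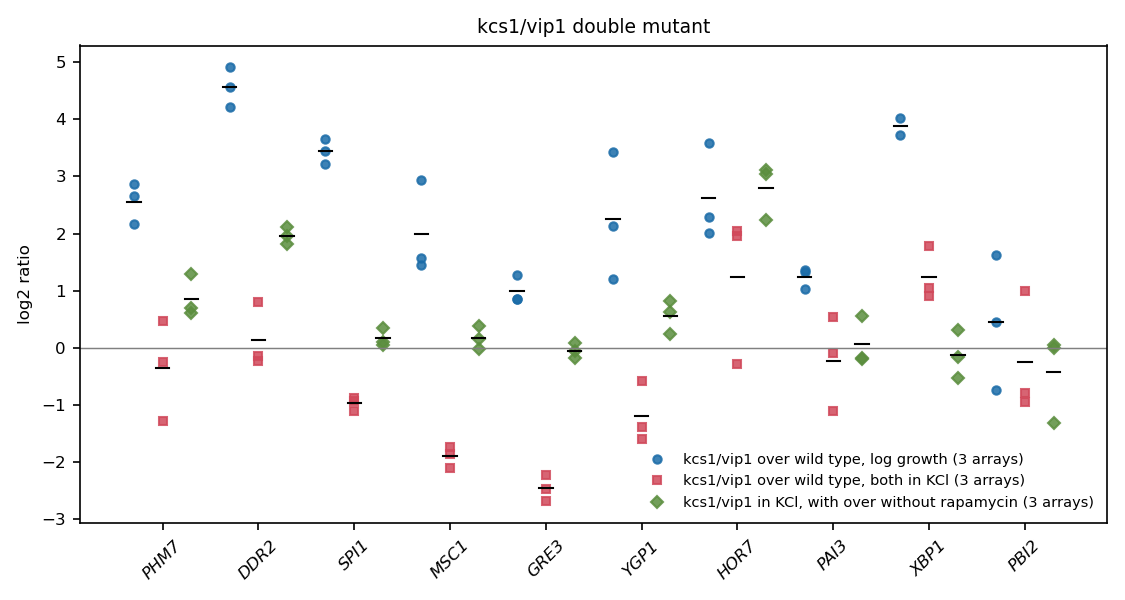
Log2 ratios (vertical axis) of the 10 genes (horizontal axis) in kcs1/vip1 cells; each point is 1 array and black bars are means of the arrays with a value. In log growth DDR2, SPI1, XBP1 and PHM7 are the highest over wild type; with both strains in KCl GRE3, MSC1, YGP1 and SPI1 are below it; and rapamycin in KCl goes with the highest ratios in HOR7 and DDR2.

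A KCl response of each mutant over its own log growth was obtained by adding the wild type KCl ratio to the mutant's KCl ratio and taking away its log-growth ratio. All 9 estimates share the wild type KCl arrays, so only the differences between strains come from the mutants' own arrays. The median of the 10 genes was 5.51 in wild type, 3.21 in kcs1/vip1 and 4.05 in rpd3 (9 genes). On the 1 assigned array of kcs1/vip1 in KCl directly over its own log growth the median was 5.50. The lower median thus holds for the sum and not for that 1 array. Gene by gene, PHM7, SPI1, MSC1, YGP1, XBP1 and GRE3 were still below every wild type KCl array on it. A similarly titled array, left out for its sources and given at the end, had lower values than the assigned array for every gene but GRE3. The sums lay between 4.94 and 6.21 in the other 7 strains, of which kcs1, ipk1 and Vip1D487A (4.94) include the doubted arrays. By the sum, the KCl response in kcs1/vip1 was below wild type for all 10 genes, by at least 1 for 9 of them. Over all genes 9.2% were below by that much. DDR2 (0.15), HOR7 (1.24) and XBP1 (1.24) had means above wild type with both strains in KCl. Their lower sums reflect their higher log-growth means (4.56, 2.63 and 3.88). On each of the 2 slides that held both a log-growth and a KCl array of kcs1/vip1, all 10 genes had the lower ratio over wild type in KCl, by medians of -3.12 and -3.10. In rpd3 the summed response of the 9 genes with a value was below wild type, for 8 of them by at least 1, against 14.4% of all genes.

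The kcs1/vip1 response was 6.22 for DDR2 (SE 1.36) against 10.63 in wild type, 5.04 for SPI1 (SE 0.56) against 9.45 and 5.04 for MSC1 (SE 0.55) against 8.92. GRE3 was at 2.30 (SE 0.40) against 5.75, and YGP1 at 1.84 (SE 0.72) against 5.28. PHM7, at 7.97 (SE 0.51), was the highest of the 10 by this sum. Differences from wild type ran from -0.69 in PBI2 to -4.41 in SPI1.

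In rpd3, with 1 array in each condition and SEs that borrow the spread of the other strains, XBP1 was at -0.76 (SE 0.91) and PBI2 at -0.78 (SE 1.00), near or below 0. DDR2 there, at 10.37 with a wide SE of 2.08, was close to the 10.63 of wild type. These SEs are of the response and not of its difference from wild type. In Rpd3ibs the summed responses of 5 of 10 genes were below wild type by at least 1, against 5.62% of all genes. They included XBP1 at 0.87 (SE 0.69) against 3.59 and PHM7 at 8.16 (SE 0.59). DDR2 in Rpd3ibs, at 10.80, was again close to wild type.

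In the strain lacking VIP1 alone, 1 gene had a summed KCl response below wild type by at least 1 and 2 were above, beside 6.34% and 4.5% of all genes. In kcs1 alone 0 were below and 2 above by that much, beside 2.9% and 2.61%, with the doubted log-growth array included. DDR2 in vip1 was at 14.06 (SE 1.85), an estimate that rests on a single KCl array with a value. In snt1, too, 0 genes were below by at least 1 and 1 was above, beside 1.23% and 1.33% of all genes, and in arg82 4 were below, beside 3.68%. The arg82 genes were SPI1 (7.65), MSC1 (7.79), HOR7 (2.61) and GRE3 (4.48).

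**Figure D3:**
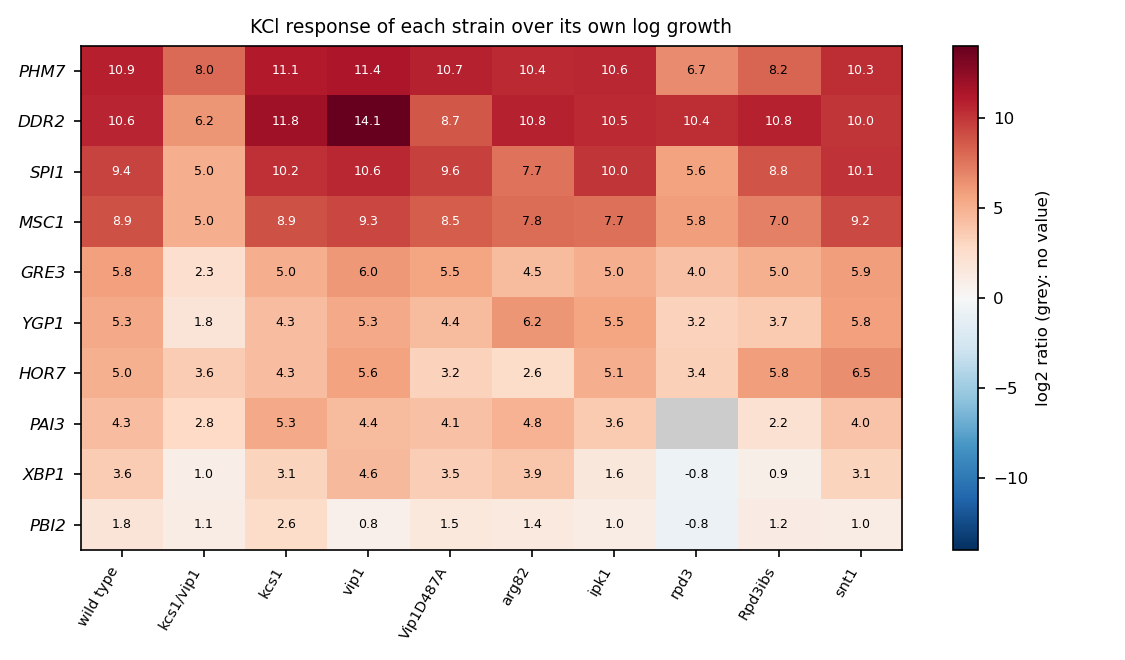
Estimated KCl response of the 10 genes (rows) in wild type and in each of 9 mutant strains over its own log growth (columns), as a log2 ratio by colour and number. The kcs1/vip1 column is lower than wild type in all 10 rows, and in rpd3 XBP1 and PBI2 are slightly below 0; grey marks a missing value.

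The kcs1/vip1 response was also measured directly on 1 assigned array for KCl and 1 for H2O2. Another array, titled kcs1/vip1 in KCl against kcs1/vip1 but with KCl in both sources, was left out here and is given at the end. On the assigned KCl array all 10 genes were at least 1 higher, against 15.4% of all genes. DDR2 was at 10.28, PHM7 at 9.15, MSC1 at 6.99, SPI1 at 6.57, HOR7 at 5.91 and PAI3 at 5.08. GRE3 (3.45), YGP1 (3.41), XBP1 (1.77) and PBI2 (1.55) followed. The direct value exceeded the sum of the other comparisons for 10 of 10 genes, by a median of 1.55. The gap was largest for DDR2, at 10.28 against 6.22, and smallest for PBI2. Across all 5763 genes the direct value was higher for 59.2%, with a median difference of 0.11, and across 1041 genes at least 1 higher in wild type KCl it was higher for 74.1%, with a median of 0.33.

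Even on the direct array PHM7, SPI1, MSC1, YGP1, XBP1 and GRE3 were below all 3 wild type KCl arrays. DDR2, HOR7, PBI2 and PAI3 were not, since the direct values of HOR7 (5.91) and PAI3 (5.08) were just above the wild type arrays and those of DDR2 and PBI2 within their range. The sum was below the wild type mean for all 10 genes, whereas the direct value was below every wild type array for 6 of them, and what separates the routes was not tested.

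For H2O2 the direct array gave HOR7 at 2.29, SPI1 at 2.28, DDR2 at 2.09, PHM7 at 1.54, YGP1 at 1.40, MSC1 at 1.13 and GRE3 at 1.00. PAI3 (0.25), XBP1 (0.15) and PBI2 (-0.19) were near 0. Thus 7 of 10 were at least 1 higher, against 3.65% of all genes on this array. The direct value was above the sum for 4 of 10 genes, with a median difference of -0.37. Across all 5792 genes it was above for 48.7% (median -0.03), and across 725 genes at least 1 higher in wild type H2O2 for 14.1% (median -0.92). PHM7 and SPI1 on this array lay between the wild type H2O2 arrays, and the other 8 genes were below both of them.

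With both strains in H2O2, kcs1/vip1 was higher than wild type by at least 1 for 5 of 10 genes, against 3.6% of all genes. SPI1 was the highest, at 3.74 and 2.51, then HOR7 at 3.10 and 1.79. DDR2 (1.85 and 0.82), PHM7 (1.82 and 0.57) and YGP1 (1.20 and 0.91) were the others. The first array was the higher in all 10 genes. The array labelled kcs1/vip1 over wild type with both in heat gave SPI1 at 9.34, PHM7 at 5.95 and all 10 genes at least 1 higher, against 15.4% of all genes. It is also the array on which VIP1 stood at -0.01 and which correlated with wild type heat over log growth, so its values are given without a strain comparison.

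**Figure D4:**
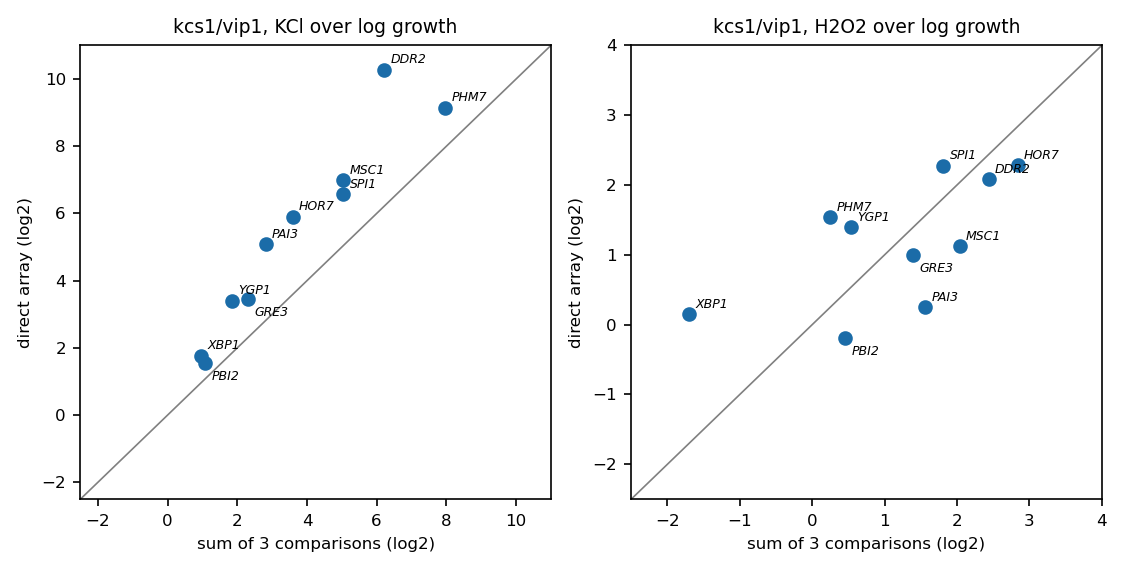
Stress over log growth in kcs1/vip1 cells for the 10 genes (points), measured on 1 direct array (vertical axis, log2) and as the sum of 3 other comparisons (horizontal axis, log2), for KCl on the left and H2O2 on the right; the line marks equal values. In KCl all 10 points lie above the line, DDR2 the farthest at 10.28 against 6.22, and in H2O2 4 of 10 do.

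Rapamycin added to kcs1/vip1 cells in KCl was tested, since both channels held RNA of that strain in KCl. This comparison was designed to place inositol pyrophosphates above or below TORC1. HOR7 rose and the other 9 genes did not pass, against 2.48% of 6052 genes that rose and 2.58% that fell. HOR7 was at 3.04, 3.12 and 2.23 (log2 2.80, SE 0.78, limma adjusted p = 0.0349). DDR2, its paralog, was at 2.11, 1.95 and 1.81, higher on each array (log2 1.96, SE 0.79, limma adjusted p = 0.155). PHM7 was at 0.69, 0.61 and 1.29 (log2 0.86, SE 0.30, limma adjusted p = 0.0857).

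YGP1 was at 0.25, 0.63 and 0.82 with a limma adjusted p of 0.465. SPI1 (0.17), MSC1 (0.17), PAI3 (0.07), GRE3 (-0.05) and XBP1 (-0.12) had means within 0.2 of 0, and PBI2 was at 0.00, -1.32 and 0.05. GRE3, MSC1 and YGP1 were the genes that lay at least 1 below wild type in KCl in this strain. Their ratios of KCl with rapamycin over KCl alone, -0.05, 0.17 and 0.57, stand beside ratios over wild type in KCl of -2.46, -1.89 and -1.18. Among the other stress-induced genes 2 of 37 rose, the trehalose synthesis genes TPS1 (0.77, limma adjusted p = 0.00363) and TPS2 (1.35, limma adjusted p = 0.000629). By limma, 0 of 11 regulators passed, and 2 had an unadjusted p below 0.05, beside 1228 of all 6052 genes tested.

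The HOR7 call did not hold without rapamycin array 1, 2 or 3 (limma adjusted p = 0.157, 0.341 and 0.0769) or with the slide as a random block (0.0689). Leaving out of the model 8 arrays of other comparisons whose values or labels were in doubt, a choice made after seeing the data, gave 3 of 10 genes that rose, HOR7 (limma adjusted p = 0.000134), DDR2 (3.3e-05) and PHM7 (0.047).

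The deacetylase strains showed the genes at both ends. In rpd3 in log growth XBP1 was at 3.96, PHM7 at 3.72, HOR7 at 3.64 and SPI1 at 2.06 on the single array, and 7 of 9 were higher by at least 1, against 12.8% of all genes. DDR2 was at -0.52. In KCl 4 of 10 were lower by at least 1, against 15.2% of all genes, and 1 was higher, against 18.8%. Those lower were MSC1 (-2.03), SPI1 (-1.78), PAI3 (-1.24) and PBI2 (-1.22), and HOR7 was at 2.01.

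Rpd3ibs, with 2 arrays in each condition, had 4 of 10 higher in log growth, against 5.66% of all genes. They were XBP1 (2.85 and 1.77), PHM7 (2.01 and 2.33), PAI3 (1.18 and 2.71) and HOR7 (1.37 and 0.79). In KCl only MSC1 was lower by at least 1 (-1.11 and -1.33), against 9.08% of all genes, and only HOR7 higher (1.60 and 2.20), against 10.2%. SPI1, at -1.11 and -0.88, just missed the cut, with a mean of -1.0 after rounding. XBP1, at -0.07 and -0.76, and PHM7, at -0.32 and -0.78, were slightly below wild type there. Both strains thus had XBP1 and PHM7 above wild type in log growth and not in KCl, and DDR2 below wild type in both conditions, by 0.41 to 0.78.

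The snt1 strain differed from these in DDR2. In log growth 7 of 10 genes were higher, against 3.54% of all genes, with DDR2 first at 3.26 and 3.58, PAI3 at 1.49 and 2.93 and MSC1 at 1.08 and 1.23. SPI1 (-0.27 and -0.23), YGP1 (0.13 and -0.12) and GRE3 (0.00 and 0.01) were near 0. In KCl MSC1 (1.67 and 1.31) and PAI3 (1.74 and 2.15) were the 2 of 8 counted that were higher, against 3.16% of all genes, and DDR2 had 1 value, 2.75.

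**Figure D5:**
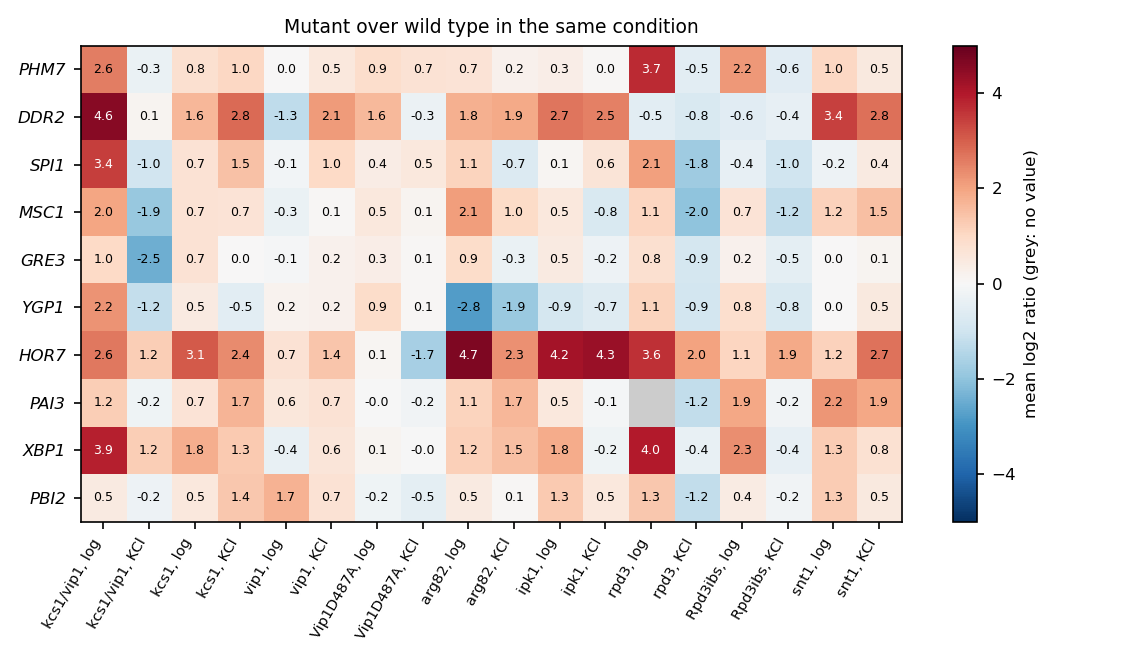
Mean log2 ratio of each mutant strain over wild type with both in log growth or both in KCl (columns), for the 10 genes (rows), by colour and number; grey marks a missing value. The highest means are HOR7 in arg82 in log growth (4.66, 1 array with a value) and DDR2 in kcs1/vip1 in log growth (4.56). The HOR7 means in ipk1 include doubted arrays, and DDR2 is below wild type in rpd3 and Rpd3ibs. YGP1 is lowest in arg82, and GRE3 and MSC1 are below wild type in kcs1/vip1 and rpd3 in KCl.

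Among the kinase mutants, kcs1 was higher than wild type in KCl for 7 of 10 genes, against 4.2% of all genes. DDR2 was at 2.93 and 2.75, HOR7 at 2.82 and 1.92 and PAI3 at 1.99 and 1.42. In log growth DDR2 (1.65 and 1.65) and HOR7 (3.72 and 2.41) were the 2 of 9 counted that were higher, against 2.08% of all genes. The second of those log-growth arrays is the one with KCS1 at -0.30 and with IPK1 at -2.87, so its strain is in doubt. YGP1 was at -1.07 on the first and at 1.98 on the second.

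In vip1 in log growth PBI2 was higher (1.82 and 1.65), against 7.1% of all genes, and DDR2 was lower (-1.23 and -1.34), against 4.34%. In KCl 0 of the 8 genes counted were higher or lower by at least 1, against 2.93% and 1.27% of all genes. SPI1 (1.34, 0.87 and 0.73), PAI3 (1.00, 0.91 and 0.26) and XBP1 (0.51, 0.43 and 0.88) were above 0 on each array. DDR2 had 1 value there, 2.14, and HOR7 had 1, 1.37.

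In Vip1D487A DDR2 was higher in log growth (2.12 and 1.14), the only one of 10, against 0.359% of all genes, and 0 of 8 genes counted were higher or lower in KCl, against 1.87% and 1.53%. The second array in each condition was a dye swap, used with the sign as deposited, and barely correlated with the first. With its sign turned, DDR2 would stand at 2.12 and -1.14 in log growth and would not be counted, and PAI3, at 1.00 and 1.05, would be.

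In arg82, DDR2 and MSC1 were at 1.81 and 1.71 and at 2.02 and 2.18 in log growth. There 5 of the 8 genes with both values were higher, against 6.59% of all genes. HOR7 was at 4.66 and YGP1 at -2.80, each on the only array with a value. In KCl 4 of 10 were higher, against 7.45% of all genes. They were DDR2 (2.21 and 1.57 on 2 arrays), HOR7 (2.33 and 2.26 on 2 arrays), PAI3 (2.06, 1.79 and 1.14) and XBP1 (0.95, 1.06 and 2.47). YGP1, at -1.53, -1.63 and -2.44, was the 1 of 10 lower by at least 1 in KCl, against 4.54% of all genes, and SPI1 was below 0 on each array by less (-0.32, -0.69 and -1.06). SPS100, its paralog, had means of 0.77 in log growth and 1.75 in KCl in this strain.

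The ipk1 arrays fell apart. On the arrays numbered 2, HOR7 was at 7.00 in log growth and 7.13 in KCl and DDR2 at 5.23 and 7.09. On the other arrays HOR7 was at 1.33 in log growth and 1.47 in KCl, and DDR2 at 0.15 in log growth and at 0.28 and 0.23 in KCl. The means, 4.16 and 4.30 for HOR7, therefore describe no array. Counted over all arrays, 3 of 9 genes were higher in log growth and 2 of 10 in KCl, against 7.27% and 4.0% of all genes, and DDR2 and HOR7 were in both counts. Without the arrays numbered 2 the median was 0.26 (9 genes with a value) in place of 0.52 in log growth and, for the 10 genes, -0.44 in place of -0.03 in KCl.

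DDR2 and HOR7, paralogs with high ratios in many mutants, also shared their gaps. DDR2 had no value on 5 of the 24 arrays with KCl in both channels and on 0 of the 30 others. HOR7 had none on 6 of 24 and on 1 of 30. PHM7, SPI1, MSC1, PBI2 and GRE3 had a value on all 54 arrays. The group means of DDR2 and HOR7 nonetheless parted in several strains. Against wild type in log growth DDR2 and HOR7 were at 3.42 and 1.16 in snt1, at -0.57 and 1.08 in Rpd3ibs and at -0.52 and 3.64 in rpd3. Whether the probes of these paralogs tell them apart was not tested.

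The likeness of the 10 genes to each other depended on the comparisons taken. Over all 27 comparisons the Pearson correlation of group means between 2 of the genes ran from 0.37 (HOR7 and YGP1) to 0.94 (SPI1 and GRE3) with a median of 0.65 in 45 pairs. Over the 18 comparisons of a mutant with wild type in log growth or KCl it ran from -0.29 (HOR7 and YGP1) to 0.84 (PHM7 and XBP1) with a median of 0.43. DDR2 and HOR7 gave 0.65 and 0.37. These are descriptions over comparisons that share arrays of the same strains and RNA of the same wild type, and the full set includes the stress arrays with large ratios for every gene. Without the 8 doubted arrays the medians were 0.74 over 24 comparisons and 0.53 over 16.

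Among 3923 other named genes with values in at least 25 comparisons, those whose group means were most like the median of the 10 were TSL1 (r = 0.956 over 27 comparisons), SOL4 (0.949 over 26), HXT5 and CTT1 (0.946 each over 27) and SPS100 (0.942 over 25). Without the 8 doubted arrays these 5 had r from 0.931 to 0.957. TSL1 encodes a subunit of trehalose synthase and HXT5 a hexose transporter of slow-growing cells. TSL1 had means of 6.88 in wild type KCl, 2.90 in H2O2 and 1.33 in kcs1/vip1 in log growth, and -0.95 in kcs1/vip1 in KCl. HXT5 had 11.40, 1.16, 2.58 and -2.17 in the same order.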

How the data were processed

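RNA was compared on 55 two-colour arrays. The authors deposited 1 value per probe and array, read here as log2 ratios of mutant or treated over reference RNA, since they fall on both sides of 0 and none exceeds 15.58 in size. The base, the background correction and the normalization are not given in the sources used here, and no depth or intensity was used. After 61 control spots were left out, 6256 probes remained, 4075 with a symbol. Symbols were matched to the R64 RefSeq gene table for names only (3942 directly, 129 through a synonym, 4 kept unmatched), and averaging probes of a symbol left 6249 genes or probes. In 3 columns with more decimals, 407 exact zeros were set to missing, none of them among the 10 genes. Between 5216 and 6206 values were present per array, with medians of -0.09 to 0.38 that were not subtracted.

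Groups came from the labels. The 1 array whose title and sources disagree entered no comparison, and 3 dye-swapped arrays kept their deposited sign. A group-means model was fitted to the 54 arrays with limma 3.58.1 in R 4.3.3 (at most 27 residual degrees of freedom, 4.63 prior degrees of freedom, prior SD 0.369). Genes with at least 2 values were tested, with Benjamini-Hochberg adjustment within a comparison and a threshold of 0.05. On simulated data of this design, the H2O2 test (5735 genes) recovered 60% of changes of 1 and 95% of changes of 2 on the log2 scale and called 3 unchanged genes. The rapamycin test (6052 genes) recovered 73% and 98% and called 16. The simulation drew independent normal noise with 1 SD per gene and changed a small share of genes. The data had a slide correlation of 0.301, doubted arrays and 2490 of 5735 genes called in H2O2. These rates therefore hold for the simulated setting only. The members, the gene lists, the tests and the rule for named genes were chosen with earlier results of these data known. Genes named are the 10 members, the deleted genes, SPS100, PRB1 and PEP4, regulators a result turns on, the listed stress genes highest in wild type KCl, or that passed for rapamycin, and the 5 genes most like the members' median. TPS1 was named after its value was seen. Alternatives were centring and scaling of arrays, restriction to genes present on each array, a random slide block, only the arrays of the comparison, robust moderation, zeros kept, the sign of swapped arrays turned and each array left out. Figures used python 3.11.15 and matplotlib 3.10.9.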

Additional observations from a re-analysis of the deposited data

Results flagged for a closer look

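In several strains every log-growth array of a gene lay on one side of wild type and every KCl array on the other. The KCl mean minus the log-growth mean of the ratio over wild type is given for each, and none of these differences was tested, since the genes were chosen on these contrasts. In kcs1/vip1 (3 arrays in each condition) the difference was -4.41 for SPI1, -3.88 for MSC1, -3.45 for GRE3 and -3.43 for YGP1. In Rpd3ibs (2 arrays in each) it was -2.72 for PHM7, -2.72 for XBP1, -1.89 for MSC1, -1.62 for YGP1 and -0.72 for GRE3. MSC1, YGP1 and GRE3 were thus above wild type in log growth and below it in KCl in both strains. In arg82 (2 and 3 arrays) SPI1 differed by -1.80. The opposite direction was found for SPI1 in snt1 (0.69, 2 arrays in each) and in vip1 (1.12, 2 and 3 arrays), and for XBP1 in vip1 (0.99).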

How the results depend on the processing

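With H2O2 in wild type cells 9 of 10 genes rose, and centring, scaling, the slide block, robust moderation, kept zeros, the 2 arrays alone and leaving out the 8 doubted arrays each gave a count within 1.5 times of it. Only genes on every array gave 4 of the 5 genes then tested, and leaving out each array 4 to 8 of 10 (a single array is then assumed to vary like the other groups). Scaling ended the calls of YGP1 and PAI3 (adjusted p = 0.118 and 0.0656), and PBI2 passed with the 2 arrays alone (0.0253). Over all genes, 2490 passed, 1488 with arrays scaled and 1062 to 1797 with an array left out. For rapamycin in KCl 1 gene rose, against 3 with arrays scaled, 3 without the 8 doubted arrays, 2 with its own arrays alone, 0 with the slide block, 0 of the 5 tested on every array and 0 with any array left out. Over all genes 306 passed, 1692 with arrays scaled, 124 with its own arrays alone, 664 without the doubted arrays and 78 to 222 with an array left out. No direction of a single gene's called change reversed.

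Scaling arrays to the same spread moved the medians of the 10 genes to 3.21 in wild type KCl, 0.69 in Vip1D487A, 1.26 in arg82 and 1.48 in snt1 in log growth, 1.70 in kcs1 and 0.95 in vip1 in KCl, 1.48 in kcs1/vip1 in H2O2 and 2.99 on its heat array. The direct kcs1/vip1 arrays moved to 4.23 in KCl and 2.46 in H2O2. The direct KCl median was then above that of wild type KCl, whereas unscaled they were 5.50 and 5.51. By the sum, the scaled KCl responses were 1.34 in kcs1/vip1, 2.07 in rpd3, 2.75 in Vip1D487A, 2.96 in ipk1 and 3.01 in Rpd3ibs. They were 3.07 in kcs1, 3.26 in arg82, 3.97 in vip1 and 4.56 in snt1. The sums of kcs1/vip1 and rpd3 were still the lowest. Turning the sign of the swapped arrays gave 5.89 in Vip1D487A. Without both ipk1 arrays numbered 2 the ipk1 response was 5.27.

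With each array left out in turn the medians ran from 5.55 to 5.74 in wild type KCl, 2.35 to 2.51 in kcs1/vip1 in log growth, -0.74 to -0.33 in kcs1/vip1 in KCl, 0.51 to 1.24 in kcs1/vip1 in H2O2, 0.50 to 0.90 in Rpd3ibs in log growth, -0.62 to -0.56 in Rpd3ibs in KCl, 0.30 to 0.62 in Vip1D487A in log growth, -0.16 to 0.21 in Vip1D487A in KCl, 1.04 to 1.12 in arg82 in log growth, 0.26 to 1.26 in ipk1 in log growth, -0.44 to 0.36 in ipk1 in KCl, 0.65 to 1.23 in kcs1 in log growth, 0.88 to 1.26 in snt1 in log growth and 0.46 to 0.96 in snt1 in KCl. The KCl responses ran from 2.79 to 3.81 in kcs1/vip1, 3.96 to 4.21 in rpd3, 5.15 to 5.79 in Rpd3ibs, 4.82 to 5.34 in Vip1D487A, 4.97 to 6.21 in arg82, 5.12 to 7.95 in ipk1, 4.85 to 5.87 in kcs1, 5.44 to 6.59 in snt1 and 5.60 to 6.21 in vip1. The cause of these shifts was not tested. Promoter motifs, planned, were not run because no sequences were used here. The labels give the arrays no replicate numbers, but log-growth and KCl arrays of a strain often shared a slide. Pairing only those, chosen after the data were seen, gave KCl responses of 3.69 in kcs1/vip1, 5.82 in arg82 and 6.27 in vip1 and left the other 6 strains within their spread. No paired analysis was possible for the 2 tested comparisons because their arrays had no numbered partners. Signal over background, which limits the largest ratios, was not analysed.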

Other observations

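The array left out of every comparison, whose title sets kcs1/vip1 in KCl against kcs1/vip1 while both of its sources name KCl, gave 8.40 for PHM7, 9.76 for DDR2, 6.39 for SPI1, 6.11 for MSC1, 5.66 for HOR7, 2.69 for YGP1, 1.07 for PBI2, 3.30 for PAI3, 1.41 for XBP1 and 3.48 for GRE3. Its values were below those of the array of kcs1/vip1 in KCl over its own log growth for 9 of the 10 genes, the exception being GRE3. Across 5822 genes the correlation of the 2 arrays was 0.95. The left-out array was above the sum of the other comparisons for every gene but PBI2 (1.07 against 1.08). PHM7, SPI1, MSC1, YGP1, PBI2, XBP1 and GRE3 on it lay below every wild type KCl array. Which RNA its reference held was not tested.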
